A study of Mus musculus with 4 samples.

Results

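The insulin-like growth factor (IGF) genes described here are 10 genes of the mouse: the ligand gene Igf1, the receptor gene Igf1r, the binding protein genes Igfbp2, Igfbp3, Igfbp4, Igfbp5 and Igfbp7, and the RNA-binding protein genes Igf2bp1, Igf2bp2 and Igf2bp3. They were picked out by gene name, and each matched 1 row of a table of 51098 genes. The samples were stomachs of E15.5 mouse embryos (E, embryonic day), whose total RNA was depleted of ribosomal RNA and sequenced. The design set knockout against heterozygous stomachs, and the series title names gastric hypoplasia in mice that lack Fgf9, a secreted fibroblast growth factor. The 4 samples formed 2 groups of 2. Fgf9_null is Fgf9LacZ/LacZ, labelled Fgf9KO, and Fgf9_het is Fgf9LacZ/+, labelled as the control although titled WT, so both groups carry the LacZ allele of Fgf9. In both groups the samples are numbered 2 and 3. Neither strain nor sex nor the number of embryos per sample is stated.

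IGF1 and IGF2 are secreted growth factors that act through the IGF1 receptor, a tyrosine kinase that signals through IRS adaptor proteins, PI3 kinase and AKT and is a main driver of fetal growth. IGF-binding proteins hold the ligands outside the cell and can both extend their life and keep them from the receptor, and proteases release the ligand again. The Igf2bp genes encode cytoplasmic proteins that bind messenger RNAs, Igf2 RNA among them, and control where and how well these are translated. They share part of their name with the Igfbp genes but are not related to them.

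Same-numbered columns of the 2 groups held the same library. The table also has 2 value columns without a name, so its header may be shifted against its columns, and a value given for Fgf9_null or Fgf9_het is the value found under that name. Column totals were 19269851 to 22713416 estimated counts. A chi-square statistic of the counts, divided by its degrees of freedom, was 0.000792 and 0.00385 for the same-numbered pairs over at least 21483 genes, leaving out the 4 genes with an unadjusted edgeR p under 0.05 between the labels. For columns of different number it was 5.49 to 5.50. The same-numbered columns differed by less than sampling noise, so the mean of each pair was counted as 1 sample, called library 2 and library 3. Levels are given in CPM, the counts scaled to the column total, as mean ± SD over n = 2 libraries, and which genotype either library had cannot be told from the labels. Fgf9 itself had 133 counts in both columns numbered 2 and 131 in both numbered 3, so its level does not tell the labels apart. All 5 markers of stomach mesenchyme and all 8 of glandular epithelium reached 1 CPM in both libraries. In a bulk sample fewer cells of a type and less RNA per cell cannot be told apart.

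The ligand gene Igf1 (ENSMUSG00000020053, GRCm38 chr10:87858265-87937042, plus strand) was well expressed. Its level was 237 and 226 CPM in Fgf9_null replicates 2 and 3 and 241 and 229 CPM in Fgf9_het replicates 2 and 3, from 4635, 5132, 4639 and 5134 counts. The columns numbered 2 were the higher pair under both labels, and the groups overlapped. The mean was 233 ± 8.18 CPM (SD, n = 2 libraries).

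The receptor gene Igf1r (ENSMUSG00000005533, chr7:67952827-68233668, plus strand) had more counts than its ligand gene but over a longer RNA. It stood at 328 and 335 CPM in Fgf9_null replicates 2 and 3 and at 333 and 339 CPM in Fgf9_het, with a mean of 334 ± 4.66 CPM. The groups overlapped here too, with number 3 the higher under each label. Unless CPM or another length is named, levels were compared between genes after division by the merged exon length in kilobases (kb). On that scale Igf1 had 23.5 ± 0.826 CPM per kb and Igf1r 19.9 ± 0.277 CPM per kb. Igf1 was 1.23 times as high as Igf1r in library 2 and 1.14 times in library 3. With the mean length of coding transcripts the values were 119 and 29.3 CPM per kb, because Igf1 has 8 annotated coding transcripts of very different length and Igf1r has 1, so the size of this difference rests on the gene model.

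**Figure D1:**
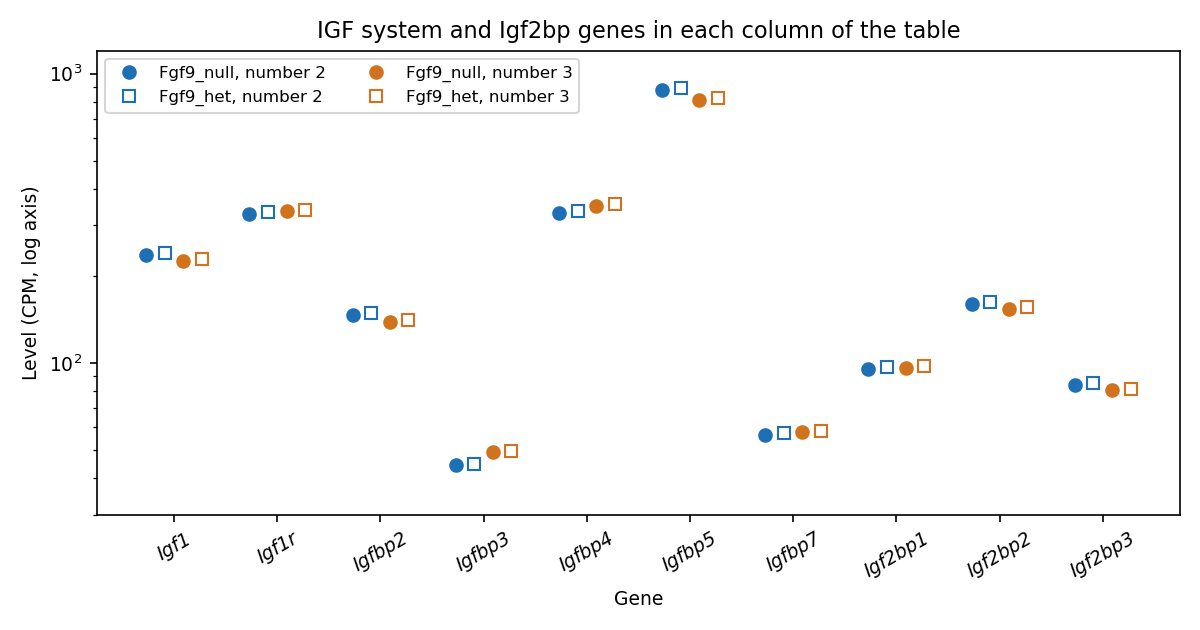
Level of each of the 10 genes in CPM (log axis) in the 4 columns of the table. Filled circles are Fgf9_null and open squares Fgf9_het; blue is replicate number 2 and orange number 3. For every gene the circle and the square of 1 colour lie almost on each other, and Igfbp5 is highest at 811 to 889 CPM.

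By merged exon length, Igfbp5 had the highest level among the binding protein genes. This gene (ENSMUSG00000026185, chr1:72857932-72874884, minus strand) encodes a binding protein that also attaches to the extracellular matrix. It had 17125 and 18415 counts in Fgf9_null replicates 2 and 3 and 17133 and 18430 counts in Fgf9_het, or 877, 811, 889 and 822 CPM in the same order. Both columns numbered 2 were above both columns numbered 3. The mean was 850 ± 47.0 CPM, or 141 ± 7.83 CPM per kb, above the level per kb of 98.9% of the 14332 protein-coding genes that reached 1 CPM in each library.

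Igfbp2 and Igfbp4 followed at the same level per kilobase. Igfbp2 (ENSMUSG00000039323, chr1:72824503-72852474, plus strand) lies tail to tail with Igfbp5, 5457 bases from it. Its level was 147 and 139 CPM in Fgf9_null replicates 2 and 3 and 149 and 141 CPM in Fgf9_het. Igfbp4 (ENSMUSG00000017493, chr11:99041244-99054392, plus strand) encodes a known substrate of the protease encoded by Pappa. It had 331 and 350 CPM in Fgf9_null and 336 and 355 CPM in Fgf9_het. The groups overlapped for both genes, with the columns numbered 2 higher for Igfbp2 and those numbered 3 higher for Igfbp4. Per kilobase, Igfbp2 had 78.1 ± 3.08 and Igfbp4 77.7 ± 3.05 CPM per kb. The pair changed places between the libraries, with Igfbp2 higher in library 2 (80.3 against 75.5 CPM per kb) and Igfbp4 higher in library 3 (79.8 against 75.9 CPM per kb), so by merged exon length they do not differ beyond the spread of the libraries. The gene model decides this too: Igfbp2 was 1.23 times as high as Igfbp4 with the longest coding transcript and 0.617 times with the mean coding transcript.

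Igfbp7 and Igfbp3 were the lowest binding protein genes among the members. Igfbp7 (ENSMUSG00000036256, chr5:77349240-77408041, minus strand), which encodes a relative of the family that binds IGFs weakly, stood at 56.5 and 57.8 CPM in Fgf9_null replicates 2 and 3 and at 57.3 and 58.5 CPM in Fgf9_het. Igfbp3 (ENSMUSG00000020427, chr11:7206086-7213923, minus strand), which encodes the main IGF carrier of adult blood, had 44.4 and 49.2 CPM in Fgf9_null and 45.0 and 49.9 CPM in Fgf9_het. For both genes the groups overlapped and the columns numbered 3 were the higher of each label. Igfbp7 has a short RNA, so its 57.5 ± 0.906 CPM came to 47.6 ± 0.750 CPM per kb, whereas the 47.1 ± 3.41 CPM of Igfbp3 came to 15.1 ± 1.09 CPM per kb.

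Of the summed level per kilobase of the 5 Igfbp members, Igfbp5 made up 39.3 ± 1.52%, Igfbp2 21.7 ± 0.494%, Igfbp4 21.6 ± 1.21%, Igfbp7 13.2 ± 0.430% and Igfbp3 4.19 ± 0.373%. In plain CPM, which favours long RNAs, the share of Igfbp5 was 58.9 ± 1.83% and that of Igfbp7 3.99 ± 0.160%. With the mean coding transcript as length the order turned, with Igfbp4 at 37.5% and Igfbp5 at 26.1%. The family has 2 further genes outside the members, both low. Igfbp6 had 5.46 and 4.30 CPM in libraries 2 and 3. Igfbp1, a gene of the liver that lies 3539 bases from Igfbp3, had 0.567 and 1.24 CPM. Together the 5 members reached 15.3 ± 0.280 times the level per kb of Igf1, and Igfbp5 alone 6.09 times in library 2 and 5.92 times in library 3. With the mean coding transcript these fell to 4.57 times for the 5 members and 1.19 times for Igfbp5.

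The coding sequences of the Igfbp members share little exact sequence. Aligned bases were identical at 50.8% to 62.7% in the 10 pairs, and the longest exact run shared by a pair was 13 to 33 bases. Igfbp5 shared no 31-base word with any other gene of the annotation, and Igfbp2 and Igfbp3 shared 3 such words with each other and with no other gene. The run of 33 bases lies in exon 1 of Igfbp2 and of Igfbp3. It is shown because it holds the 31-base words that these 2 members have in common, with the shared run in capitals and 20 coding bases on each side, 5′ to 3′ from GENCODE M21 transcripts.
Igfbp2, chr1:72824740-72824812, plus strand: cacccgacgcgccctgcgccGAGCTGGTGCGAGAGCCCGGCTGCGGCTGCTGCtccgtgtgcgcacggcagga
Igfbp3, chr11:7213555-7213627, minus strand: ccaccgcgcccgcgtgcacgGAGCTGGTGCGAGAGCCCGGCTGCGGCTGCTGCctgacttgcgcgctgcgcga

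Other members overlap unrelated sequence. Igfbp7 shares 85 exon bases with Polr2b, a gene of the opposite strand at 64.8 CPM. Igfbp4 shared 6.18% of its 31-base words with other genes. How the authors' estimate divided such reads is not stated.

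**Figure D2:**
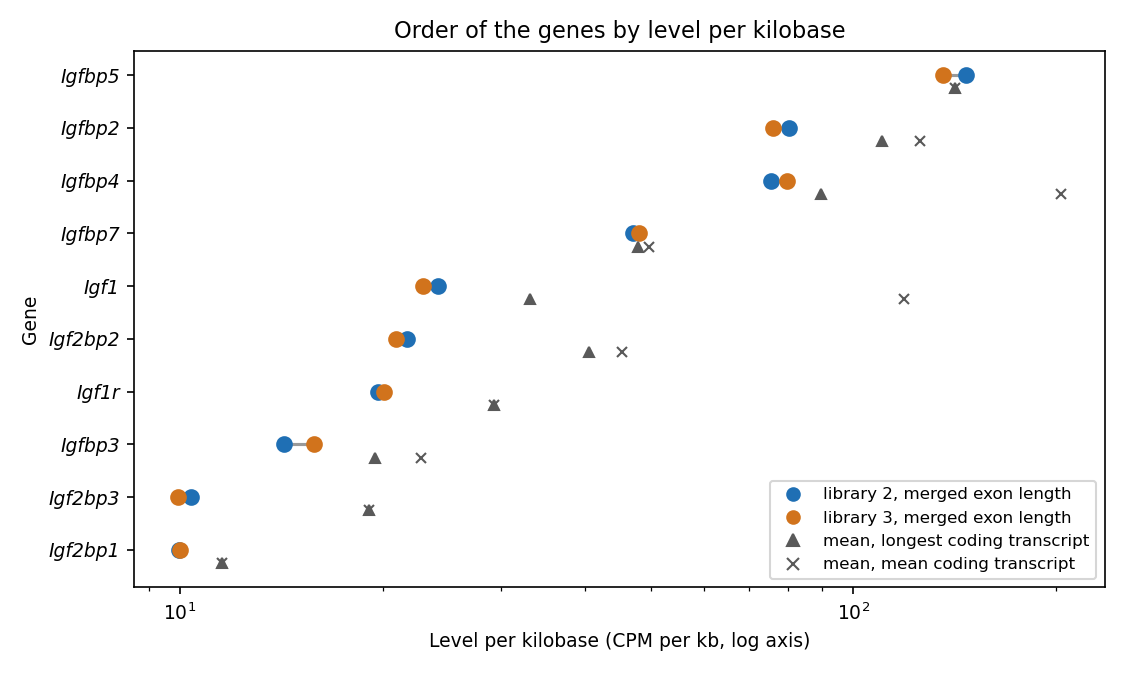
Level of each gene in CPM per kb (log axis). Coloured points are libraries 2 and 3 with the merged exon length; grey triangles and crosses are the means with the longest and the mean coding transcript length. Igfbp5 leads at 141 CPM per kb by merged exon length, and the crosses of Igf1 and Igfbp4 lie far to the right of their coloured points.

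In order of level per kilobase the members ran Igfbp5, Igfbp2, Igfbp4, Igfbp7, Igf1, Igf2bp2, Igf1r, Igfbp3, Igf2bp3 and Igf2bp1. In 7 of the 9 steps of this order both libraries of the higher gene lay above both of the lower gene. The steps from Igfbp2 to Igfbp4 and from Igf2bp3 to Igf2bp1 did not separate. With the longest coding transcript as length, Igf1 and Igf2bp2 changed places. With the mean coding transcript, Igfbp4 led at 203 CPM per kb and 5 genes changed places.

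The Igf2bp genes, best known from embryonic tissues and tumours, were all expressed. Igf2bp2 (ENSMUSG00000033581, chr16:22059009-22163299, minus strand), the member that many adult tissues keep, had 160 and 154 CPM in Fgf9_null replicates 2 and 3 and 162 and 156 CPM in Fgf9_het. Igf2bp1 (ENSMUSG00000013415, chr11:95957163-96005940, minus strand), which binds and transports RNAs such as that of beta-actin, had 95.8 and 96.1 CPM in Fgf9_null and 97.2 and 97.5 CPM in Fgf9_het. Igf2bp3 (ENSMUSG00000029814, chr6:49085223-49214957, minus strand), an oncofetal relative, had 84.1 and 80.6 CPM in Fgf9_null and 85.2 and 81.7 CPM in Fgf9_het. In Igf2bp2 and Igf2bp3 the groups overlapped and the columns numbered 2 were the higher. In Igf2bp1 both Fgf9_het columns were above both Fgf9_null columns in CPM, although its counts of 1872 and 1873 in the columns numbered 2, and of 2183 and 2185 in those numbered 3, were nearly equal.

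Per kilobase, Igf2bp2 reached 21.4 ± 0.576, Igf2bp3 10.2 ± 0.302 and Igf2bp1 9.98 ± 0.0209 CPM per kb. Igf2bp2 was 2.14 ± 0.0622 times as high as Igf2bp1 and 2.10 ± 0.00585 times as high as Igf2bp3, and it made up 51.5 ± 0.325% of the summed level. With the mean coding transcript it was 3.93 times as high as Igf2bp1 and 2.37 times as high as Igf2bp3. Igf2bp3 was above Igf2bp1 by 1.04 times in library 2 and at 0.995 times in library 3, a difference within the spread. With the longest coding transcript as length, Igf2bp3 stood at 19.1 and Igf2bp1 at 11.5 CPM per kb, so whether they are level depends on the gene model.

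The coding sequences of the 3 Igf2bp genes were identical at 68.9% to 69.7% of aligned bases, with no shared exact run longer than 20 bases. Igf2bp3 overlaps the gene Malsu1 on the opposite strand over 1529 exon bases, and 18.6% of its 31-base words occur in other genes, nearly all in Malsu1, which stood at 20.4 CPM. Without a stated strand setting, reads from this overlap cannot be assigned, and the level of Igf2bp3 carries that uncertainty.

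Igf2bp genes are textbook targets of let-7, a microRNA family that is low in early embryos and rises as tissues mature. A microRNA pairs through its seed (bases 2 to 8) with matching bases in the 3′ untranslated region (3′ UTR) of a messenger RNA. All 9 let-7 and miR-98 sequences with a 5p arm in the RefSeq table (GRCm38.p6) have the same seed. The let-7a and let-7g sequences and miR-98 are shown with the seed in capitals, 5′ to 3′, to show that the members of the family differ outside it.
let-7a-5p: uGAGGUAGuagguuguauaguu
let-7g-5p: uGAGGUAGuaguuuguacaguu
miR-98-5p: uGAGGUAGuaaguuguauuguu

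The complement of the seed, CTACCTC, was searched on the transcript strand in the longest annotated 3′ UTR of each gene, and a match is a description, not a shown site of action. Igf2bp1 had 4 matches in 6337 bases. Of the 605 coding genes with a 3′ UTR of like length (0.8 to 1.25 times), 0.331% had at least as many. Each such share counts the gene itself. Igf2bp2 had 1 match in 1784 bases and Igf2bp3 1 match in 2119 bases; 12.1% and 13.3% of 3′ UTRs of like length had at least 1. Igf1r had 2 matches in 7267 bases (8.93% of like length had at least as many), and Igf1 and Igfbp5 had 1 each, against 33.7% and 24.4% with at least 1. No match was found in the longest 3′ UTRs of Igfbp2, Igfbp3, Igfbp4 and Igfbp7. Of 3′ UTRs of like length, 2.33%, 9.88%, 15.1% and 1.79%, in the same order, had at least 1. Those of Igfbp2 and Igfbp7 are short, at 312 and 240 bases. Per kilobase of 3′ UTR, Igf2bp1 had 0.631, Igf2bp2 0.561 and Igf2bp3 0.472 matches, so these genes lay closer by density than by count. The Igf2bp matches are printed with the match in capitals, on GRCm38 and 5′ to 3′ on the minus strand.
Igf2bp1, chr11:95961777-95961798: tgtgcgaagtaaaCTACCTCaa
Igf2bp1, chr11:95959356-95959377: gcagtgctattaaCTACCTCag
Igf2bp1, chr11:95958762-95958783: ataaatggatgaaCTACCTCag
Igf2bp1, chr11:95958139-95958160: ttttggttttaatCTACCTCtt
Igf2bp2, chr16:22059472-22059493: acacaaataaaagCTACCTCag
Igf2bp3, chr6:49086786-49086807: catttttactcaaCTACCTCag

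An adenine after the match, which extends the site, followed 3 of the 4 matches in Igf2bp1 and the single matches in Igf2bp2 and Igf2bp3. The microRNAs themselves were not measured, since 11 of the 12 let-7 and miR-98 precursor genes in the table had 0 counts and the other had at most 1.

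**Figure D3:**
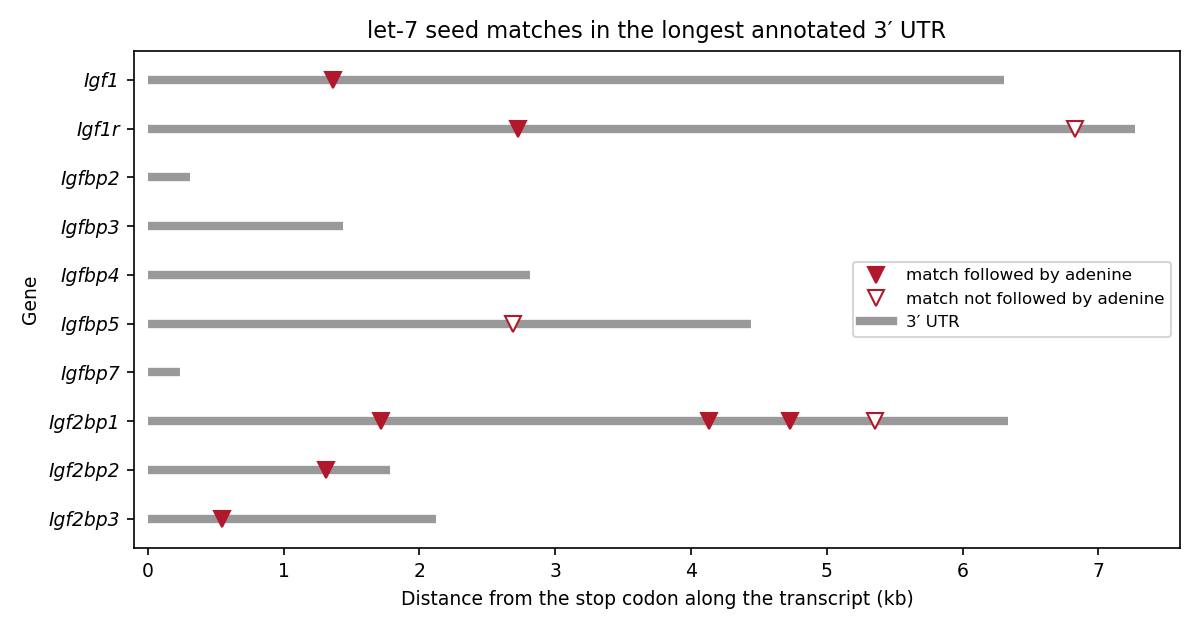
Matches to the let-7 seed (triangles) along the longest annotated 3′ UTR of each gene (grey bars), by distance from the stop codon in kb. Filled triangles mark a match followed by adenine. Igf2bp1 carries 4 matches, Igf1r 2, and Igf1, Igfbp5, Igf2bp2 and Igf2bp3 1 each.

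Other genes of the pathway set the members in context. In each of the 4 lists below, the pair with the highest level per kb and any gene without counts are named by rule, and genes beyond these were chosen after their values were seen. Among the other ligands, receptors and binding proteins, Igf2, the ligand gene of fetal growth, had 2607 and 2625 CPM in libraries 2 and 3. At 457 ± 2.23 CPM per kb it was 19.4 ± 0.776 times as high as Igf1 and 3.24 ± 0.195 times as high as Igfbp5, against 9.41 and 7.90 times with the mean coding transcript. Its count depends on how reads were divided with Gm49394, which shares 3596 exon bases on the same strand. Igf2r, whose receptor removes IGF2 from the cell surface, had 60.5 ± 6.33 CPM per kb, or 3.04 ± 0.276 times the level of Igf1r. With the longest or the mean coding transcript, Igf2r was 2.17 times as high as Igf1r. The insulin receptor gene Insr had 8.15 ± 0.234 CPM per kb, and Igf1r was 2.44 ± 0.104 times as high, or 1.31 times with the mean coding transcript. The insulin gene Ins2 had 0 counts in every column, which allows a level of up to 0.132 to 0.156 CPM (3 counts).

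The proteases that cut IGF-binding proteins, and the stanniocalcins that inhibit some of them, were low beside the members. All 5 genes of this list lay between 0.707 and 4.90 CPM per kb by merged exon length, below every member on that scale. Htra1 and Pappa led at 4.90 ± 0.136 and 3.01 ± 0.412 CPM per kb. These levels were above 46.4% and 31.7% of the protein-coding genes that reached 1 CPM in each library. In this list 2 genes were higher in library 2 and 3 in library 3. Pappa had 36.4 and 29.9 CPM in libraries 2 and 3, and Htra1 14.4 and 13.8 CPM. Pappa2, a second protease gene, went the other way with 10.9 and 17.4 CPM, as did Stc2, an inhibitor gene, with 8.40 and 12.6 CPM.

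Genes that carry the signal from the receptor were all present. Each of the 23 reached 1 CPM in both libraries. Grb10, an imprinted gene whose adaptor protein restrains the receptor, led at 91.0 ± 6.51 CPM per kb, and the kinase gene Akt1 followed at 68.8 ± 0.455 CPM per kb. Irs4, an adaptor gene, was the lowest at 0.222 ± 0.0451 CPM per kb, from 27 to 31 counts a column.

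Genes of the fetal RNA-binding and let-7 regulated list spanned the widest range. H19, the noncoding RNA gene imprinted together with Igf2, stood at 7930 and 7935 CPM in libraries 2 and 3, or 3225 ± 1.49 CPM per kb. Hmga1, a chromatin protein gene, had 22.1 ± 3.68 CPM per kb, a value that depends on how reads were divided with its near-identical copy Hmga1b. Lin28a, which encodes an RNA-binding protein that blocks let-7 maturation, had 0 counts in every column, and its relative Lin28b had 25, 24, 25 and 24 counts (1.18 ± 0.153 CPM). Hmga2, a let-7 regulated chromatin protein gene, had 92.3 ± 5.49 CPM, or 13.6 ± 0.811 CPM per kb.

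**Figure D4:**
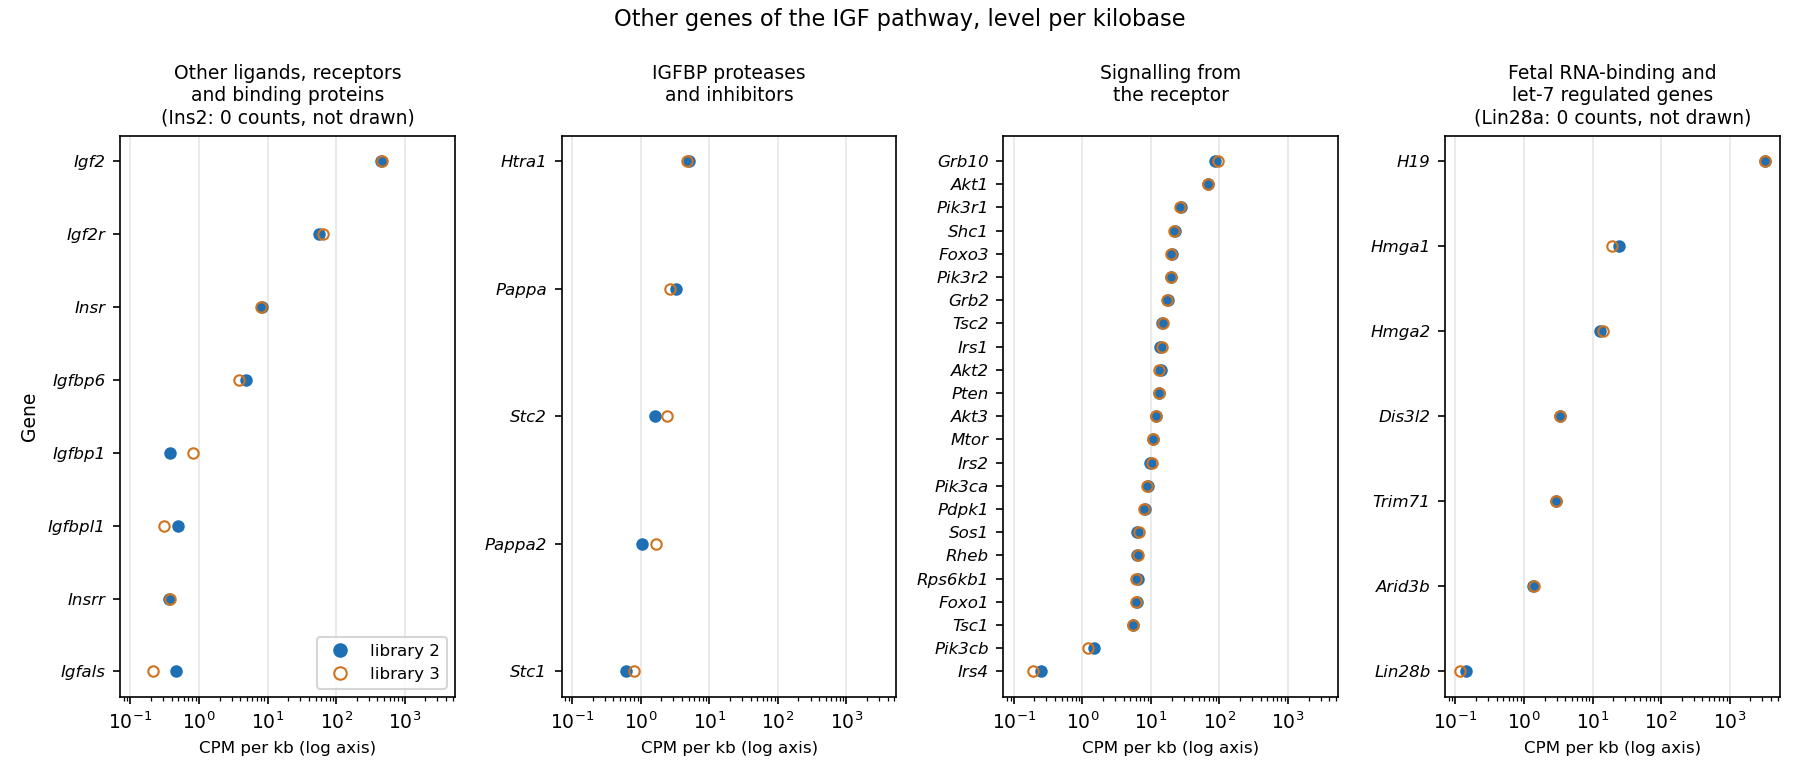
Level per kilobase (CPM per kb, log axis) of the other pathway genes in 4 lists, with library 2 as filled blue and library 3 as open orange points. Igf2 and H19 stand at 457 and 3225 CPM per kb, the proteases and inhibitors lie between 0.707 and 4.90, and Ins2 and Lin28a had 0 counts and are not drawn.

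The comparison of Fgf9_null with Fgf9_het asked whether the IGF genes respond to loss of Fgf9, and here it set each library against itself. Counts of the members differed by at most 15 between same-numbered columns (Igfbp5 in replicate 3, 18415 against 18430), or by at most 0.143% of the count. The CPM of each member was nonetheless lower in the Fgf9_null column of each pair, by less than 2%, in step with the totals of those columns, which hold 2.59% to 2.71% of their counts in the structured RNA gene Rn7s1 against 1.30% to 1.32% in the Fgf9_het columns. edgeR's quasi-likelihood test called 0 of the 10 members at an adjusted p under 0.05, against 0% of all 19987 genes tested. No member, and 0.02% of all genes, fell below 0.05 before adjustment. The smallest edgeR p of a member in this fit was 0.962, and other settings gave smaller ones. DESeq2 also called 0 members. Log2 folds of the members, Fgf9_null over Fgf9_het, lay between -0.0014 and 0.0011.

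None of the other pathway genes tested was called by edgeR: 0 of 8 other ligands, receptors and binding proteins, 0 of 5 proteases and inhibitors, 0 of 23 signalling genes and 0 of 7 fetal RNA-binding and let-7 regulated genes. These p-values measure only the spread between columns. A fit blocked on replicate number called 6 genes (0.03%) and 0 members in edgeR with its default quasi-likelihood method, and 1178 genes (5.89%) and 0 members with its newer method. The 1178 genes had a median absolute log2 fold of 0.00597, and as both columns of a block hold 1 library, no such count measures an effect of Fgf9.

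Between library 2 and library 3, the members differed little. Each library is 1 sample, so there is no test, and intervals are exact 95% intervals that cover counting error only. Igfbp3 was 0.903 times as high in library 2 as in library 3 (interval 0.825 to 0.988), and Igfbp4 0.946 times (0.915 to 0.978). Igfbp5 was 1.08 times as high in library 2 (1.059 to 1.104), Igfbp2 1.06 times (1.00 to 1.11) and Igf1 1.05 times (1.01 to 1.09). The other 5 members had intervals that included 1. With TMM scaling each ratio fell by 0.0194 on the log2 scale, the intervals of Igfbp2 and Igf1 included 1 as well, and the remaining 3 kept their direction.

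Igfbp3 alone passed 1.1-fold, 1 of 10 members, and 0 passed 1.2-fold or 1.5-fold. Among 16712 genes that reached 1 CPM in each library, 41.3% passed 1.1-fold in either direction, 17.3% passed it with library 3 the higher, as Igfbp3 did, 19.7% passed 1.2-fold and 3.88% passed 1.5-fold. Igfbp3 was the lowest member in mean CPM. Among the 4476 genes at least as high in mean CPM, 18.8% passed 1.1-fold and 5.12% passed 1.2-fold. The median size of the difference was 1.05-fold for the members and 1.05-fold for those genes. The members thus differed about as much as genes at or above the CPM of their lowest member. By direction, 5 members were higher in library 2 and 5 in library 3, against 54.2% and 45.8% of the 16712 genes, and Igf2bp1, at 0.997, turned when structured and mitochondrial RNAs were left out of the total.

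**Figure D5:**
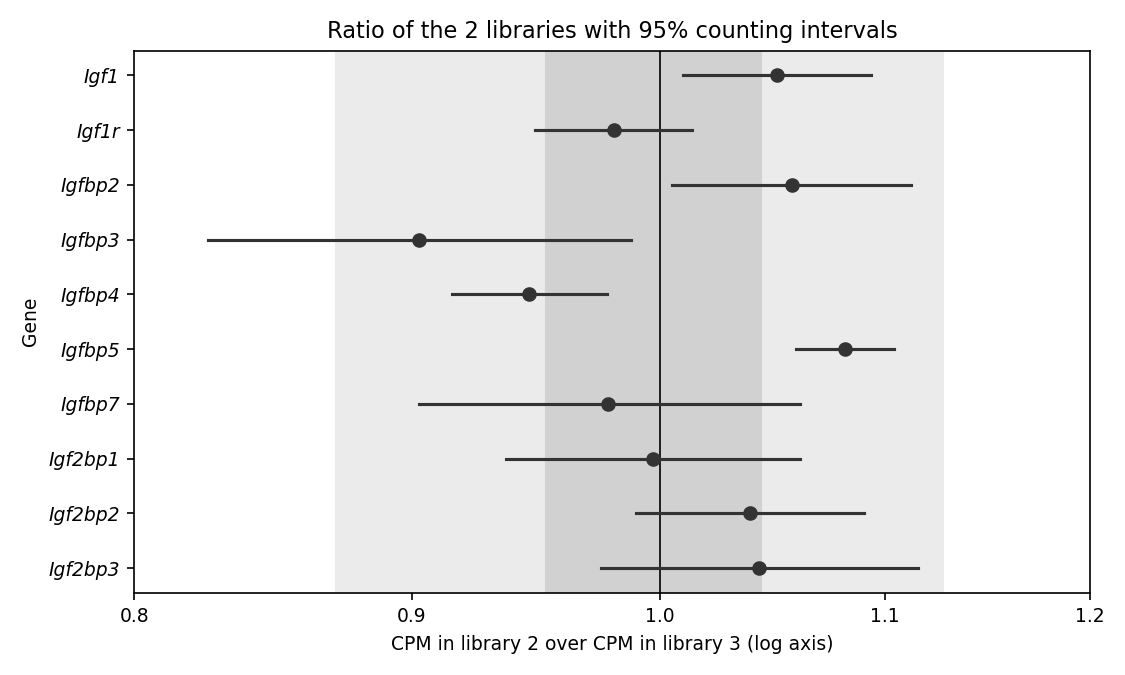
CPM in library 2 over CPM in library 3 (log axis) for each gene, with exact 95% counting intervals. The dark and light bands hold the middle 50% and 90% of the 4476 genes at least as high in mean CPM as Igfbp3. Igfbp5 lies farthest right at 1.08 and Igfbp3 farthest left at 0.903, both inside the light band.

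Several of the 15 lists of cell type markers also differed between the libraries. Squamous forestomach markers summed to 510 CPM in library 2 and 280 CPM in library 3, with 4 of 4 higher in library 2. Glandular epithelium markers summed to 6542 and 6186 CPM, with 5 higher in library 2 and 3 higher in library 3. Liver markers summed to 113 and 148 CPM, with 7 of the 7 at 1 CPM or more higher in library 3. Endothelial markers summed to 278 and 320 CPM, with 5 of 5 higher in library 3. Stomach mesenchyme markers summed to 362 and 397 CPM, also with 5 of 5 higher in library 3. Erythroid markers shifted further the same way, from 1146 to 1579 CPM, with 6 of the 6 at 1 CPM or more higher in library 3. Skeletal muscle markers summed to 30.6 and 22.4 CPM, with 4 of the 4 at 1 CPM or more higher in library 2. Smooth muscle markers summed to 5370 and 5581 CPM, with 2 higher in library 2 and 3 in library 3. Pancreas markers summed to 11.2 and 12.9 CPM, with 3 of the 3 at 1 CPM or more higher in library 3. Sums were 101 and 100 CPM for mesothelium, 39.7 and 39.6 for lung, 4.69 and 4.70 for spleen and 23.2 and 22.4 for intestine. They were 82.7 and 82.3 CPM for macrophages and 140 and 146 CPM for neurons and glia. The part of these cell types in the ratios of the members was not tested.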

How the data were processed

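Per the labels' protocols, ribosomal RNA was removed with RNase H before random priming and paired sequencing. Tools in the submitters' processing notes are edgeR, Salmon 1.8.0, Trimmomatic 0.33 and FastQC 0.10; the notes list both mm10 and GRCm38. No source used here gives the strand setting or annotation release. The authors deposited estimated counts per Ensembl gene. Samples were matched to columns by title, and 2 unnamed columns were not used; whether the header is aligned with the columns could not be settled.

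Counts were scaled to CPM by column totals, same-numbered columns were averaged, and levels were divided by merged exon length in GENCODE M21 (50870 genes matched). A single count equals 0.0440 to 0.0519 CPM. The test on rounded counts used edgeR 4.0.16 (R 4.3.3; TMM, filterByExpr, quasi-likelihood F test, Benjamini-Hochberg over all genes, threshold 0.05), tested on simulated data; limma 3.58.1 and DESeq2 1.42.0 were alternatives. Ratio intervals are Clopper-Pearson. As a pairing check, columns with 1 number deviated from the group means together (r = 0.999, 16712 genes), so the numbers pair columns of 1 library.

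The members and lists were chosen with earlier results of these data known. All 10 members are named. Of the other pathway lists, the pair highest per kilobase and genes without counts are named by rule. Further genes of these lists were chosen after their values were seen.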

Additional observations from a re-analysis of the deposited data

How the results depend on the processing

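The number of members called between the labels was 0 under all alternatives run: RLE and upper-quartile factors, no filter, a filter of 1 CPM in all columns, limma-voom, DESeq2, the replicate block, edgeR's newer quasi-likelihood method (legacy=FALSE) without and with the block, a threshold of 0.1 and each column left out. The number of all genes called was 0 in the first 5 of these, with the newer method and at 0.1, 3 with DESeq2, 6 with the replicate block, 1178 with the block and the newer method (neither block changed a member's call) and 1 to 2 with a column left out, when the lone column is assumed to vary like the other group. Log2 folds of the members lay within 0.0016 of 0 in the other settings with all columns and between -0.086 and 0.0889 with a column left out, which sets 1 library against the mean of both. In the order by level per kilobase, 2 members changed places with the longest coding transcript and 5 with the mean coding transcript. The number of members past the fold between libraries was 0 at 1.2 and 1.5 and 1 at 1.1. Levels from the columns of 1 label were 0.993 to 1.01 times the reported ones, and without structured and mitochondrial RNAs 1.22 times. The background of genes at least as high in mean CPM as Igfbp3 was chosen after seeing the data. So were the TMM intervals, the newer quasi-likelihood method and the ratios and shares under other gene models. Depth limits Igfbp1, Igfals, Igfbpl1, Irs4 and Lin28b, with 11 to 31 counts a column; 2 libraries limit every spread.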

Other observations

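The let-7 seed match searched above was rare across the annotation. Of 20936 coding genes, 9.06% had at least 1 match in their longest 3′ UTR and 12 genes had 4 or more, Igf2bp1 among them. The other genes with 4 or more were Nr6a1 with 8 matches, Mcf2l and Nudt12 with 7 each, Trim6 with 6, and D10Wsu102e, Hic2, Hmga2, Lin28b, Ptafr, Trim71 and Zbtb37 with 4 each. Their levels ran from 1.18 CPM for Lin28b to 762 CPM for D10Wsu102e. Igf2bp1, at 96.7 CPM, and Hmga2, at 92.3 CPM, were next below D10Wsu102e. Levels here are not scaled to length, and these genes were chosen after the search.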
